A study of Mus musculus with 9 samples.

Results

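The phagocyte NADPH oxidase is followed here through 6 genes, Ncf1, Ncf4, Cyba, Cybb, Rac1 and Rac2, in mouse leukemia stem cells with and without knockdown of Csnk1a1. The members were all probes whose platform gene symbol is one of these names, which gave 8 probes out of 45281 on the array, for 6 of 19057 gene symbols: 2 probes each for Ncf1 and Cybb, and 1 each for Ncf4, Cyba, Rac1 and Rac2. A probe counted as detected on an array when the deposited detection p, which compares its signal with negative controls, was under 0.05. Tests covered the 13641 probes that were detected on 3 or more of the 9 arrays, 5 of the 8 member probes among them.

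All 9 samples were leukemia stem cells driven by the MLL-AF9 fusion oncogene, of C57BL/6 background and Actin-dsRed genotype, taken from the bone marrow of quaternary transplant recipients and sorted as Hoechst low, dsRed+, c-kit hi, CD34+ and FcyRII hi. The control group carried a short hairpin RNA against luciferase (Luc, n = 3), and the knockdown groups carried hairpin 94 (n = 3) or hairpin 97 (n = 3) against Csnk1a1, which encodes casein kinase 1 alpha. The labels give neither a time after transduction, nor an age, nor whether the 3 samples per group are distinct animals, so p-values measure only the spread between these samples, which may be technical. The sort was made on surface markers and dye exclusion, and in such bulk samples fewer cells of a type and less RNA per cell cannot be told apart.

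The oxidase turns molecular oxygen into superoxide at the membrane of phagocytes and is known for its role in killing microbes. Its catalytic core is a membrane heterodimer of gp91phox (Cybb), which carries electrons, and p22phox (Cyba), which stabilises it. On activation the cytosolic complex that holds p47phox (Ncf1, the organiser) and p40phox (Ncf4, which binds membrane phosphoinositides) joins the core together with a GTP-bound Rac protein. Rac2 is the Rac protein largely restricted to blood cells, and Rac1 is expressed in nearly all cells.

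The upstream sequences of Ncf1, Cyba and Cybb are shown, the members for which RefSeq promoter sequence (build GRCm38.p6) was matched (3 of 6). Ncf1 went from undetected to detected, Cyba was lower relative to the rest of the array after quantile normalization, and Cybb was at background. The 250 bases before the annotated start lie at chr5:134229626-134229875 for Ncf1, chr8:122432941-122433190 for Cyba and chrX:9469325-9469574 for Cybb, all on the minus strand. Capitals mark each match, on either strand, to 1 of 3 short motifs.
Ncf1: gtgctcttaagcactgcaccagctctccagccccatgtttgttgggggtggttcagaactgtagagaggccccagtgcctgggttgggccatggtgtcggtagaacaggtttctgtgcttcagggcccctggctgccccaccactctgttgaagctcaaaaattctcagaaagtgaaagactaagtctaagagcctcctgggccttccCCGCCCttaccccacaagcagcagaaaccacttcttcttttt
Cyba: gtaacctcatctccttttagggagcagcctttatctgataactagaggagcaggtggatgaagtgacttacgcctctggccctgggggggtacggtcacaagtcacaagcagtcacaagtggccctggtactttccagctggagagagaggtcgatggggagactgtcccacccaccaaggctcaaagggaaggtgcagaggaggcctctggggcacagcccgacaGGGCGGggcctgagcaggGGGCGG
Cybb: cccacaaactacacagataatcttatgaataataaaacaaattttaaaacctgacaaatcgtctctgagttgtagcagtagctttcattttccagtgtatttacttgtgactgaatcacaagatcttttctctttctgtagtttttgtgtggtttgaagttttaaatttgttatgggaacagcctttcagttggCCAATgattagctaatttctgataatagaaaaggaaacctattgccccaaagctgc
The motifs were the GC box GGGCGG, the CCAAT box CCAAT and GAGGAA, 1 form of a PU.1 box, and no other forms were searched. The GC box occurred 42 bases before the start of Ncf1 (as its reverse complement) and at 24 and 6 bases before the start of Cyba, and the CCAAT box at 56 bases before the start of Cybb. The 3 motifs do not overlap each other here, and GAGGAA was in none of the 3 windows. Of all 32851 windows of this length, 32.7% held the GC box, 33.9% the CCAAT box and 23.3% GAGGAA, so each match is a description of these letters only. The absence of GAGGAA likewise does not show that a PU.1 site is missing. The G and C content was 54.4% for Ncf1, 60% for Cyba and 34% for Cybb.

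The arrays of the groups differed in brightness, which touches every value below. A Luc array detected 9262 to 10347 probes and a knockdown array 12969 to 14280, a difference in means of 3570 (two-sided exact permutation p = 0.0238, the smallest that 84 splits can give). The 1 probe of the target Csnk1a1 was detected on 0 of the 9 arrays (detection p 0.293 to 0.862), so the knockdown itself is not checked by these data. Once the count of detected probes entered the fit as a covariate, 0 of the 13641 probes passed in limma against Luc, so brightness and group cannot be told apart by that fit. Of the gate genes, Kit and the Fc receptor genes Fcgr2b and Fcgr3 each had a probe detected on all 9 arrays. Cd34 passed detection on 4 of the 6 knockdown arrays and 0 of 3 with Luc. Normalized values are on a log2 scale after background correction and quantile normalization, which gives all arrays the same distribution, so a change is relative to the array as a whole.

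**Figure D1:**
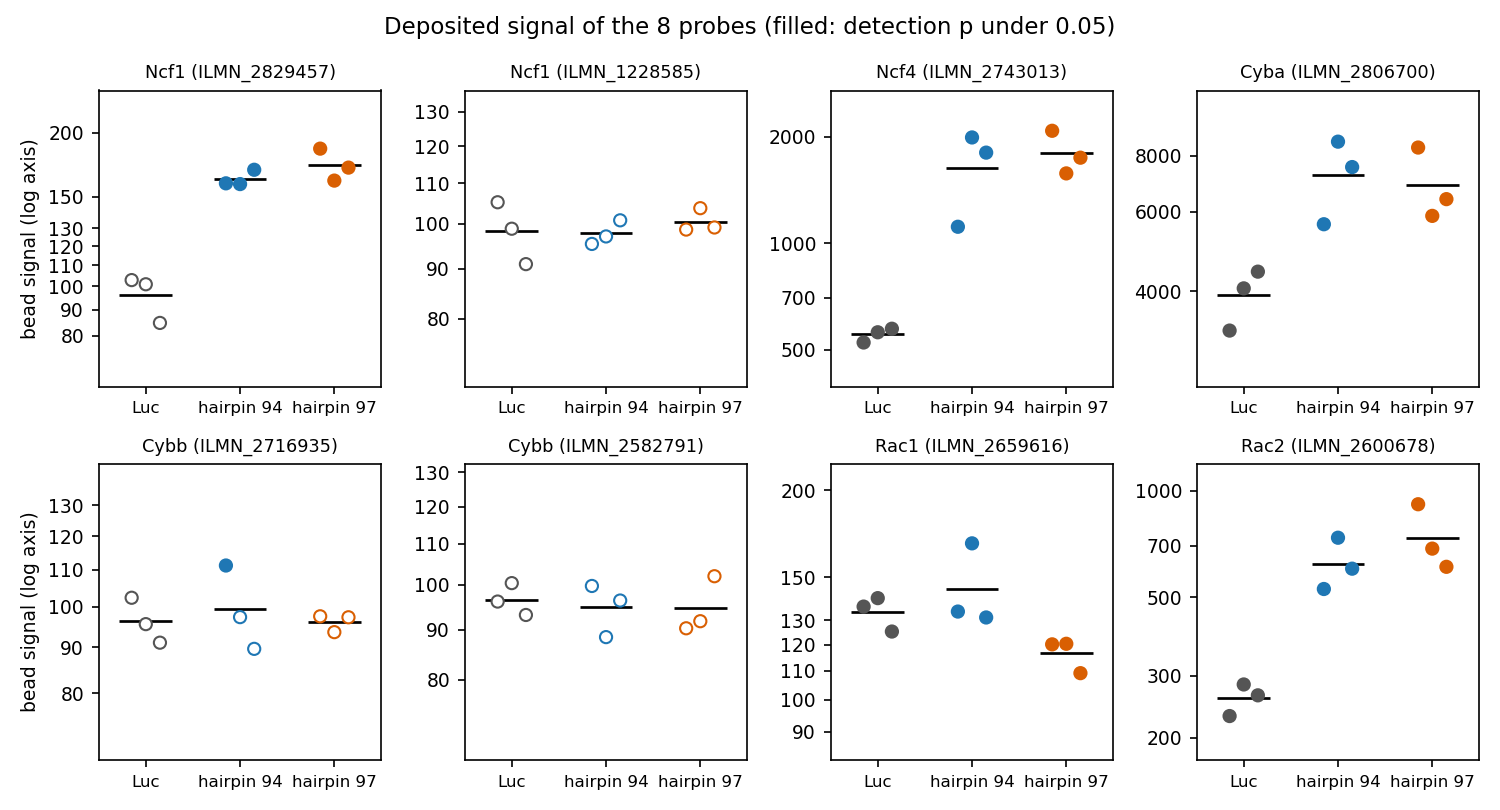
Deposited bead signal (vertical axis, logarithmic) of the 8 member probes on the 3 Luc, 3 hairpin 94 and 3 hairpin 97 arrays; each point is 1 array, filled where the detection p was under 0.05, and bars are group means. The first Ncf1 probe was unfilled on all Luc arrays (84.8 to 102.9) and filled on all knockdown arrays (158.8 to 186.3), and the Rac1 signals of hairpin 97 (109.2 to 120.3) lay below those of Luc (125.3 to 139.9).

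Ncf1, the organiser subunit, was higher with knockdown on 1 of its 2 probes. The probe ILMN_2829457 had signals of 102.9, 101.0 and 84.8 on the Luc arrays, with detection p of 0.302, 0.392 and 0.929. With hairpin 94 the signals were 159.3, 158.8 and 169.3, and with hairpin 97 they were 186.3, 161.3 and 171.0, each with a detection p of 0. The probe was thus not above background on any Luc array and above it on all 6 knockdown arrays, and the groups did not overlap. Normalized log2 values were 4.44, 4.39 and 4.20 for Luc, 6.33, 5.88 and 6.16 for hairpin 94, and 6.20, 6.27 and 6.25 for hairpin 97. Because Luc gives only a bound, Ncf1 was, on this normalized scale, at least 2.35-fold higher with both hairpins, at least 2.26-fold with hairpin 94 and at least 2.45-fold with hairpin 97, counted from the mean detection floor of the Luc arrays (the lowest normalized value among detected probes of each array, log2 4.95). Such bounds, here and below, do not carry over to other scalings. The fitted log2 change of Ncf1 for both hairpins was 0.94 with cyclic loess. It was 0.68 with arrays scaled to the median of probes detected on all arrays. The limma adjusted p, over all 13641 probes, was 6.49e-05 for both hairpins, 0.000161 for hairpin 94 and 0.00025 for hairpin 97. The probe entered the tests only through the knockdown arrays, where it was high, so these p-values are not independent of the detection filter. The fitted log2 change, 1.84 for both hairpins, ranged from 0.48 with the series matrix values to 2.51 with the covariate, and it passed under every alternative that kept the probe except that covariate (adjusted p = 0.409).

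The second Ncf1 probe, ILMN_1228585, did not show this change. Its signals ran from 91.0 to 105.2 on Luc arrays, from 95.4 to 100.8 with hairpin 94 and from 98.6 to 103.7 with hairpin 97. It was detected on 0 of the 9 arrays, with the smallest detection p (0.0534) on hairpin 97 replicate 5 and the largest (0.659) on Luc replicate 3. Both probes carry the same RefSeq transcript in the platform table, so the rise of Ncf1 rests on 1 of its 2 probes. With every probe tested regardless of detection, the second probe gave a log2 difference of 0.09 (SE 0.08, limma adjusted p = 0.598).

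Ncf4, the phosphoinositide-binding subunit, was higher with knockdown, by a margin that depended on the scaling. Its probe ILMN_2743013 was detected on every array with a detection p of 0. Its signals were 523.4, 559.4 and 572.5 for Luc, 1112, 1990 and 1803 for hairpin 94, and 2078, 1574 and 1744 for hairpin 97. After normalization the values were 10.03, 10.01 and 9.87 for Luc, 10.06, 10.32 and 10.45 for hairpin 94, and 10.35, 10.43 and 10.39 for hairpin 97. All 6 knockdown values lay above the 3 Luc values, the lowest of them by little. The log2 change was 0.37 for both hairpins (SE 0.12, limma adjusted p = 0.0328). With hairpin 97 alone it was 0.42 (adjusted p = 0.0386), and with hairpin 94 alone 0.31, which did not pass (adjusted p = 0.112). With arrays scaled to the median of all probes it was 1.75 for both hairpins (adjusted p = 8.3e-09) and 1.67 for hairpin 94 alone, which passed there, beside a median of 0.88 over all probes. The call for both hairpins was lost when any 1 array other than hairpin 94 replicate 1 was left out (log2 change 0.31 to 0.42, adjusted p 0.0181 to 0.0945 over the 9 omissions).

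**Figure D2:**
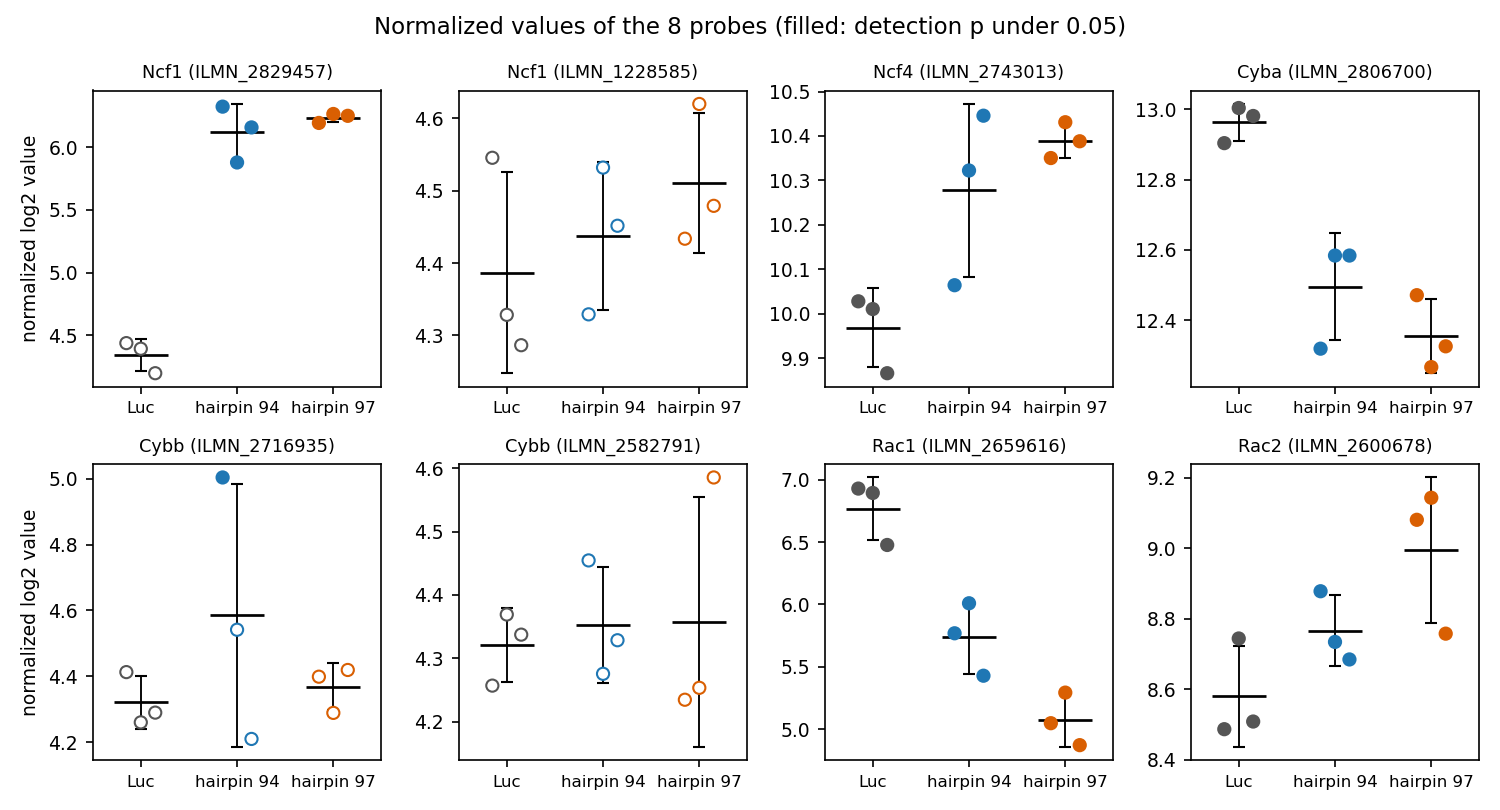
Normalized log2 value (vertical axis) of the 8 member probes on each array, with the group mean and SD (n = 3) as bars and filled points where the probe was detected. Ncf1 (first probe) and Ncf4 lie higher on all 6 knockdown arrays than on the 3 Luc arrays, Cyba and Rac1 lower (0.84 and -0.09 in log2 change with arrays scaled to the median of all probes), and the other 4 probes overlap between the groups.

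Cyba, the p22phox partner of the membrane core, changed direction with the way arrays were brought to a common scale. Probe ILMN_2806700 was detected on all 9 arrays with a detection p of 0. Its signals were 3266, 4055 and 4418 for Luc, 5634, 8605 and 7554 for hairpin 94, and 8349, 5881 and 6408 for hairpin 97, so before normalization every knockdown array lay above every Luc array. After quantile normalization the order was the opposite, with 12.90, 13.00 and 12.98 for Luc, 12.32, 12.58 and 12.58 for hairpin 94, and 12.47, 12.27 and 12.33 for hairpin 97. Cyba fell by 0.54 on the log2 scale with both hairpins (SE 0.12, limma adjusted p = 0.00451), with -0.47 for hairpin 94 (adjusted p = 0.0226) and -0.61 for hairpin 97 (adjusted p = 0.00648). The fall is relative to other probes of the same array: after scaling to the median of all probes Cyba gave 0.84 and passed as higher, while all tested probes had a median of 0.88 under that scaling. The hairpin 94 call was lost without Luc replicate 2 (-0.44, adjusted p = 0.0521) or hairpin 94 replicate 1 (-0.39, adjusted p = 0.0717).

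Cybb, the catalytic subunit, was at background with both of its probes. Probe ILMN_2716935 ranged from 89.7 to 111.2 in signal and was detected on 1 of the 9 arrays, hairpin 94 replicate 1 (detection p of 0.00321), with detection p from 0.0716 to 0.877 on the others. Probe ILMN_2582791 ranged from 88.4 to 102.0, was detected on 0 of the 9 arrays and had detection p from 0.0673 to 0.799. Neither entered the tests, and no fold change is given. With every probe tested regardless of detection, their log2 differences for both hairpins were 0.16 (limma adjusted p = 0.612) and 0.03 (adjusted p = 0.877). A signal at background bounds what these probes could measure and does not show that the transcript was missing.

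The Rac genes went separate ways. Rac1 probe ILMN_2659616 was detected on all 9 arrays, with a detection p of 0 on 8 of them and 0.00534 on hairpin 97 replicate 6. Its signals were 136.1, 139.9 and 125.3 for Luc, 133.8, 167.7 and 131.2 for hairpin 94, and 120.1, 120.3 and 109.2 for hairpin 97. The hairpin 97 signals were thus below all Luc signals before any scaling, and the hairpin 94 signals overlapped those of Luc. The hairpin 97 arrays were brighter than Luc in mean signal, while their median signals (96.6 to 97.9) lay within the Luc range (95.1 to 101.9). After normalization the values were 6.93, 6.89 and 6.48 for Luc, 5.77, 6.01 and 5.43 for hairpin 94, and 5.05, 5.29 and 4.87 for hairpin 97, with no overlap between the 3 groups.

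Rac1 fell by 1.36 on the log2 scale with both hairpins (SE 0.17, limma adjusted p = 0.000271), with -1.03 for hairpin 94 (SE 0.19, adjusted p = 0.00311) and -1.70 for hairpin 97 (SE 0.19, adjusted p = 0.000379). The size depended on background correction: for both hairpins it was -0.62 without it and -0.43 with the series matrix values, both past the threshold. With arrays scaled to the median of all probes the change was -0.09 and did not pass (adjusted p = 0.701). Under that scaling hairpin 94 alone gave 0.29 (adjusted p = 0.275) and hairpin 97 alone -0.47 (adjusted p = 0.0772), neither past the threshold. The order of the normalized levels was Luc, hairpin 94, hairpin 97, but the step between the hairpins, -0.66 (SE 0.19, 95% interval -1.09 to -0.24), did not pass over all probes (limma adjusted p = 0.29). It passed with cyclic loess (-0.79, adjusted p = 0.0378) and with array weights (-0.72, adjusted p = 0.046).

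Rac2, the blood cell Rac protein, did not pass. Probe ILMN_2600678 was detected on all 9 arrays with a detection p of 0, with signals of 230.4, 283.1 and 263.7 for Luc, 527.5, 736.9 and 602.2 for hairpin 94, and 916.7, 686.4 and 609.6 for hairpin 97. Normalized values were 8.49, 8.74 and 8.51 for Luc, 8.88, 8.73 and 8.68 for hairpin 94, and 9.08, 9.14 and 8.76 for hairpin 97. Hairpin 94 overlapped Luc, and hairpin 97 lay above it. The log2 difference was 0.30 for both hairpins (SE 0.13, limma adjusted p = 0.0877), 0.19 for hairpin 94 (adjusted p = 0.367) and 0.41 for hairpin 97 (adjusted p = 0.0551). The difference was 1.73 with arrays scaled to the median of all probes (adjusted p = 8.9e-09), 1.60 for hairpin 94 and 1.86 for hairpin 97, all past the threshold. Among 6 alternatives under which it passed for both hairpins were the fits without background correction (0.25, adjusted p = 0.0321) and with the series matrix values of the authors (0.23, adjusted p = 0.0274).

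**Figure D3:**
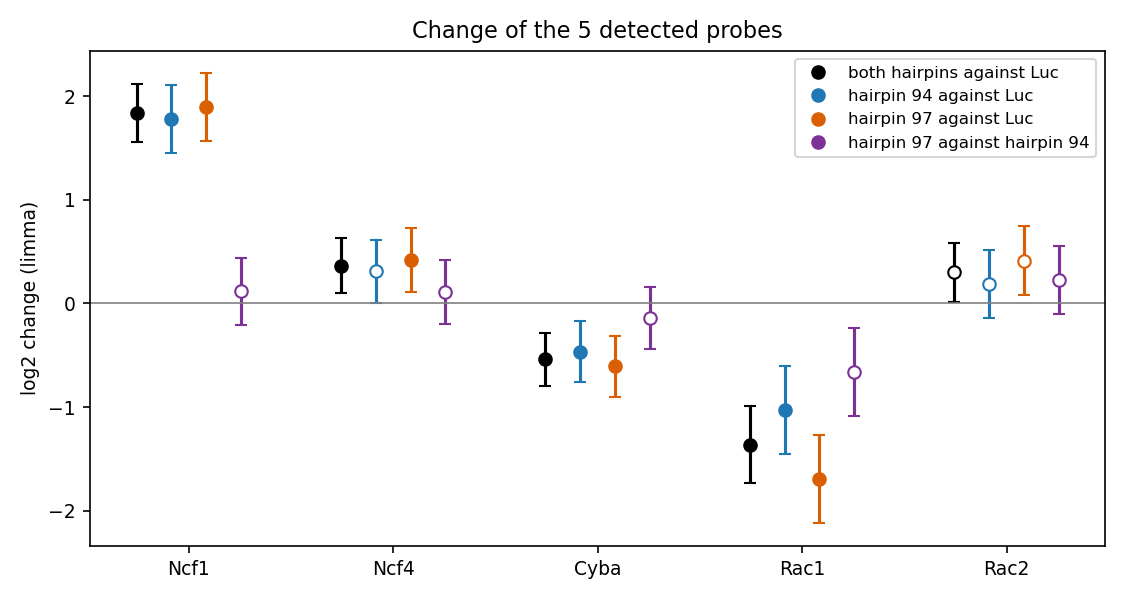
Log2 change (vertical axis) of the 5 detected member probes in 4 comparisons, from limma, with 95% intervals; filled points have an adjusted p under 0.05. Ncf1 (1.84) and Ncf4 (0.37) lie above 0 and Cyba (-0.54) and Rac1 (-1.36) below it for both hairpins, and no member passed between the hairpins. The Ncf1 point is a fitted value and not a bound, and the Cyba and Rac1 points were 0.84 and -0.09 with arrays scaled to the median of all probes.

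Counted together, 2 of the 5 detected member probes were higher and 2 lower with both hairpins (Cyba turning higher and Rac1 losing its call with arrays scaled to the median of all probes), where 25.0% of all tested probes were higher and 15.2% lower by the same test. With hairpin 94, 1 was higher and 2 lower, against 20.0% and 12.3% of all probes. With hairpin 97, 2 were higher and 2 lower, against 20.6% and 12.3%. All 6 knockdown arrays lay above all Luc arrays for 2 of the 5 and below them for 2, which was so for 21.5% and 12.6% of all tested probes. Ncf1, among those higher in each of these counts, entered the tests through the knockdown arrays alone. Between hairpin 97 and hairpin 94, 0 of the 5 passed in limma (1 at an unadjusted p under 0.05, Rac1), and 0.139% of all probes passed. The comparisons of each hairpin with Luc share the same 3 Luc arrays and are no independent repeats of each other. Among the 200 probes nearest in mean level to each member, the median log2 change was 0.24 for the neighbours of Ncf1, 0.01 for Rac1, 0.01 for Rac2, -0.02 for Ncf4 and 0.06 for Cyba.

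The difference between a pair of probes on the same array was compared between the 6 knockdown and the 3 Luc arrays. It was taken on background-corrected values, with no scaling between arrays. A brightness change common to both probes cancels only where both signals lie far above background and the added offset of 16. The dim Rac1 and Ncf1 probes did not meet this. This test was chosen after the values were seen. Of the 10 pairs among the 5 detected probes, 6 shifted with an adjusted p under 0.05 over the 10 pairs, each at the smallest p the design allows (two-sided exact permutation p = 0.0238, adjusted 0.0397). Rac1 minus Rac2 was -1.77 ± 0.24 (SD, n = 3) on Luc arrays, -3.08 ± 0.27 (SD, n = 3) with hairpin 94 and -4.11 ± 0.22 (SD, n = 3) with hairpin 97, a shift of -1.82 in the log2 difference, in the same direction on 6 of 6 knockdown arrays. Cyba minus Rac2 shifted by -0.89, Ncf4 minus Cyba by 0.91 and Ncf4 minus Rac1 by 1.84, each on 6 of 6 arrays. Ncf1 minus Cyba shifted by 1.28 and Ncf1 minus Rac1 by 2.21, and these include Luc values of Ncf1 at background. Without background correction Ncf1 minus Cyba was -0.04, Ncf1 minus Ncf4 -0.81 and Ncf1 minus Rac2 -0.57. With any 1 array left out except hairpin 94 replicate 2, 0 of the 10 pairs passed after adjustment, the smallest exact p then being 0.0357 or 0.0714. Ncf4 minus Rac2 shifted by 0.02, with 2 knockdown arrays above all Luc arrays and 2 below (p = 0.929 by the exact permutation test). Cyba minus Rac1 (0.93) and Ncf1 minus Ncf4 (0.37), each with an adjusted exact permutation p of 0.0595, and Ncf1 minus Rac2 (0.39, adjusted exact permutation p = 0.106) did not pass. With the series matrix values Cyba minus Rac1 was -0.17, the opposite sign (adjusted exact permutation p = 0.159). Over the alternatives run, Rac1 minus Rac2 ranged from -1.97 to -0.66 and Ncf4 minus Rac1 from 0.77 to 2.00. A shift in such a difference does not show which of the 2 probes moved. For pairs with Rac1 or Ncf1, the part of array brightness in the shift was not tested.

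**Figure D4:**
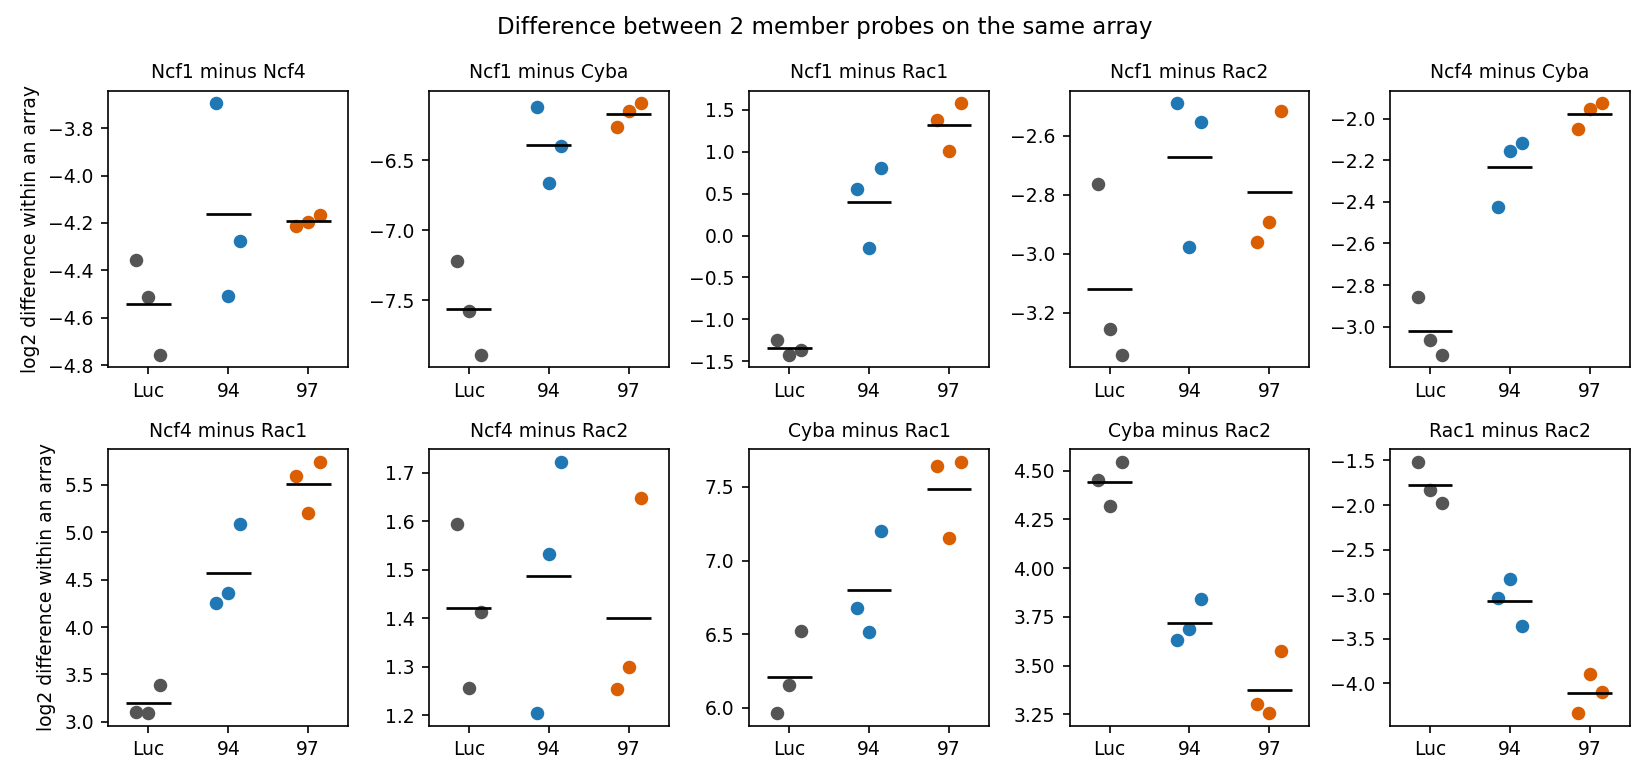
Log2 difference between 2 member probes on the same array (vertical axis), for the 10 pairs of detected probes, on background-corrected values with no scaling between arrays; points are arrays of Luc, hairpin 94 and hairpin 97, and bars are group means. Rac1 minus Rac2 goes from -1.77 (Luc) to -3.08 (94) and -4.11 (97), and Ncf4 minus Rac2 stays between 1.20 and 1.72 on all 9 arrays.

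The other genes of the pathway were taken from 7 lists with 81 genes, of which 75 had a probe and 49 had one in the tests (78 probes). For both hairpins 29 of the 78 probes were higher and 4 lower, that is 37.2% and 5.13%, against 25.0% and 15.2% of all tested probes. The median log2 change was 0.30 against 0.11. Among these 29, a probe each of Prkcb, Tlr4, C5ar1 and Cat was undetected on all Luc arrays. The counts of these lists and of the cell type markers below were not run under scalings other than quantile normalization. Of all calls 62.2% were higher here, 99.9% with scaling to the median of all probes and 15.6% with scaling to probes detected on all arrays. The list of other oxidase subunits, homologs and helpers had 3 tested probes of 13 genes, and 2 of them were higher. Cybc1, a chaperone that the core heterodimer needs, rose by 1.05 (SE 0.13, limma adjusted p = 0.000278). Hvcn1, the proton channel that balances the charge the oxidase moves, rose by 1.07 (adjusted p = 0.000604) with 1 probe, and its other probe gave 0.70 (adjusted p = 0.0535). Nox1, Nox3, Nox4, Noxo1, Noxa1, Duox1, Duox2, Duoxa2 and Rap1a did not pass the detection filter.

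Among other small GTPases related to Rac, 2 of 5 tested probes were higher and 0 lower. Rhog, a relative of Rac that acts upstream of it, rose by 1.23 (SE 0.20, limma adjusted p = 0.00106). Rhob rose by 0.94 (adjusted p = 0.00196), from a probe above background on 1 Luc array. Cdc42, the close relative that shares effectors with Rac, gave 0.00 (SE 0.21, adjusted p = 0.994), and the Rac3 probes did not pass the filter. Of 24 tested probes of regulators of Rac, 10 of them for Elmo1, 4 were higher and 2 lower. Abr, a GTPase-activating protein for Rac, rose by 0.93, and the exchange factor Vav2 by 0.83, each above background on 1 Luc array. Each rests on 1 probe, and the other probes of both genes did not pass the detection filter. Arhgap25, another GTPase-activating protein, rose by 0.79 for both hairpins and passed with neither alone (limma adjusted p 0.0986 and 0.0633), while its second probe gave -0.27 and did not pass. For Elmo1, a scaffold of the exchange factor Dock2, 1 probe fell by 0.73 (adjusted p = 0.0227) and the other 9 did not pass.

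Kinases that act on the oxidase had 6 higher and 1 lower of 10 tested probes. All 3 probes of Prkcb, a protein kinase C that phosphorylates p47phox, passed as higher: one rose by 0.81, another by 0.90, and the third, undetected in all Luc samples, was at least 1.75-fold higher. Prkcd rose by 0.72 (adjusted p = 0.00177 by limma) and Pik3cg, the phosphoinositide 3-kinase of G protein signalling, by 0.74, with 0.27 and no call from its other probe. Mapk14, the p38 alpha kinase, fell by 0.49 (adjusted p = 0.0109). Among receptors that trigger the oxidase, 4 of 9 tested probes were higher and 0 lower. Fcgr3 rose by 1.12, and 1 probe of Tlr4 was undetected on Luc arrays and at least 1.52-fold higher. C5ar1, detected on 0 Luc and 4 knockdown arrays, passed with knockdown means below the detection floor of Luc, so no fold is given. These Tlr4 and C5ar1 probes likewise entered the tests through the knockdown arrays alone.

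Of 12 tested probes of enzymes that use or remove superoxide and peroxide, 6 were higher and 0 lower. All 4 probes of Mpo, which makes hypochlorous acid from the peroxide that follows from oxidase activity, passed for both hairpins, with log2 changes of 0.45 to 1.27. With hairpin 94 all 4 passed (0.84 to 1.61), and with hairpin 97 only 1 did (0.93), the others giving 0.32, 0.32 and 0.06. Sod1, which dismutates superoxide, rose by 0.87 with 1 probe while another gave 0.05. Cat (catalase) was at least 1.23-fold higher, with 0 of 3 Luc arrays detected. This Cat probe entered the tests through the knockdown arrays alone, and the other Cat probe did not pass the filter. Among transcription factors of oxidase genes, 5 of 15 tested probes were higher and 1 lower. Spi1, which encodes PU.1, rose by 0.76 (SE 0.27, limma adjusted p = 0.0455), from a probe above background on 2 Luc arrays, and passed with neither hairpin alone (limma adjusted p 0.0847 and 0.0886). In the same list 3 of the 4 Cebpe probes rose, by 0.39 to 0.78. The Irf1 probes disagreed, with one higher (0.72) and one lower (-0.45), and Irf8 did not pass the filter. Between the hairpins 0 of the 78 probes passed in limma.

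**Figure D5:**
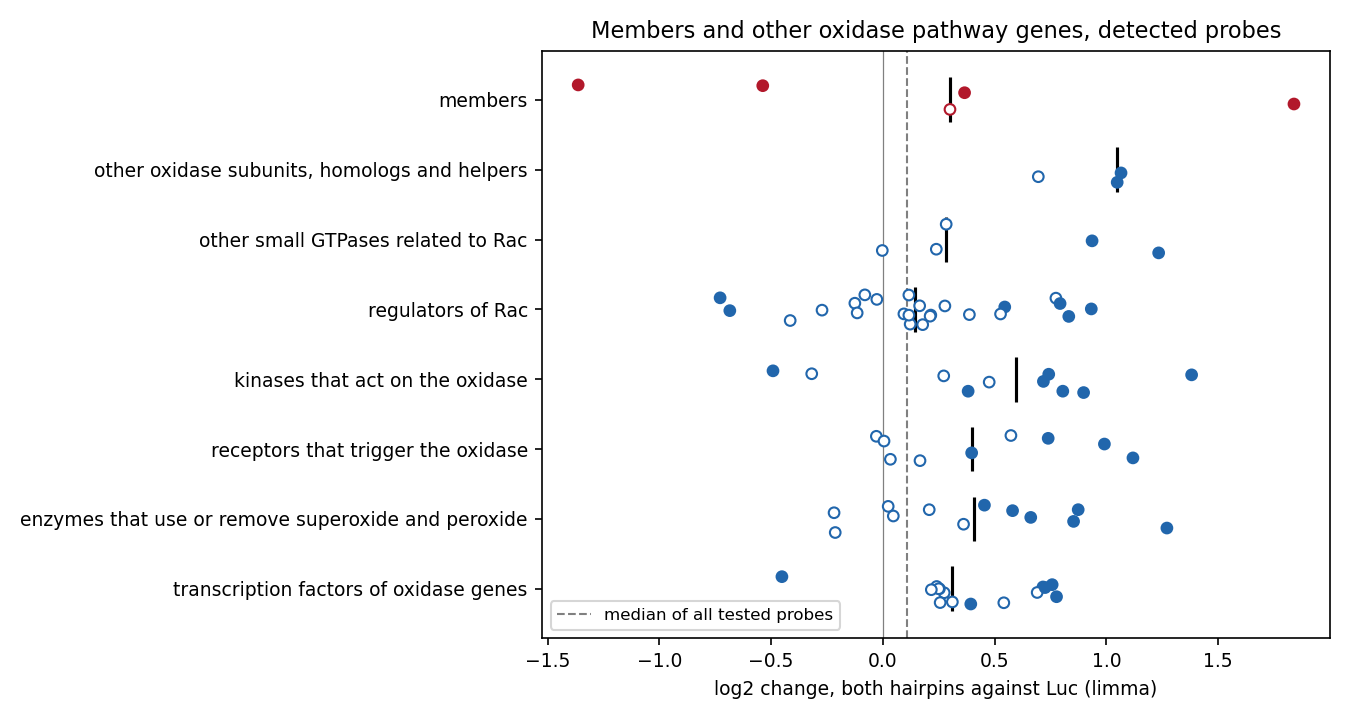
Log2 change for both hairpins against Luc (horizontal axis) of the detected probes of the members and of 7 lists of other pathway genes; each point is a probe, filled at an adjusted p under 0.05, the black bar is the median of the list and the dashed line the median of all tested probes (0.11). The members spread from -1.36 (Rac1) to 1.84 (Ncf1), and 29 of the 78 probes of the lists are filled on the higher side.

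Neutrophil markers were also higher with both hairpins. Of the 9 listed neutrophil genes on the array, 6 were detected (S100a8, S100a9, Camp, Ngp, Ltf and Lcn2). Their 6 tested probes were all higher with both hairpins, against 25.0% of all tested probes. The tested Ltf probe was undetected on Luc arrays and entered through the knockdown arrays alone, and the other Ltf probe was detected on no array. The summed normalized signal of the 6 tested probes was 4485 to 5074 on Luc arrays, 9658 to 9915 with hairpin 94 and 9354 to 11116 with hairpin 97. Mmp8, Mmp9 and Cxcr2, markers of later neutrophils, did not pass the filter. Monocyte and macrophage markers had 4 of 8 genes detected and 0 called, with sums of 131 to 181 for Luc, 171 to 191 for hairpin 94 and 157 to 176 for hairpin 97, and Ccr2, Mpeg1, Fcgr1 and Cx3cr1 did not pass the filter. The eosinophil, basophil and mast cell list had 2 of 5 tested probes higher and 2 lower, against 25.0% and 15.2% of all tested probes. Prg2 and Epx, eosinophil granule genes, gave -1.18 and -0.65 (limma adjusted p 0.0003 and 0.00154). Both tested probes of the mast cell protease Cpa3, undetected on Luc arrays, passed as higher. They are the 2 higher probes of this list and entered the tests through the knockdown arrays alone, so their calls are not independent of the detection filter. For 1 of the Cpa3 probes the knockdown mean (log2 4.84) lay below the detection floor of Luc. The summed signal of that list was 437 to 510 for Luc, 356 to 386 for hairpin 94 and 242 to 280 for hairpin 97, and Siglecf, Ccr3, Mcpt8 and Ms4a2 did not pass the filter. No T and NK cell marker and no erythroid marker passed the filter. The part of these markers in the change of Ncf1 or of other members was not tested.

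The probes of other genes with the most similar pattern over the 9 arrays were found by Pearson correlation of normalized values, as a description of points that share arrays and groups. For Ncf1 they were Dhdds, Rpl10a and Ltf, the last a neutrophil granule gene (r = 0.993, 0.992 and 0.991). For Cyba they were Acta2, Msi2 and Lamtor4 (r = 0.99, 0.985 and 0.981), and for Rac1 they were Rnf44, Ahcyl1 and Plpp5 (r = 0.987, 0.973 and 0.969). Ncf4 was most like Sft2d3, Vbp1 and Incenp (r = 0.956, 0.955 and 0.951) and Rac2 most like Cenpk, Lrp4 and Lrrc8d (r = 0.959, 0.946 and 0.941).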

How the data were processed

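Total RNA was biotin-labelled and hybridised to Illumina bead arrays, per the labels' protocols. Each probe has a deposited intensity on every array, the average bead signal per the file headers, and a deposited detection p-value beside it. The deposited series matrix holds log2 values: within each array their ranks equal those of the signals, and each column has the same median (6.612), so they appear quantile normalized and uncentred. The labels and headers used here name no software or scan date, so no batch was tested. Members, lists and tests were chosen with earlier results of these data known. Intensities were background corrected with neqc (limma 3.58.1, R 4.3.3, offset 16, negative controls inferred from the detection p), quantile normalized and log2 transformed. The size of a change of a dim probe depends on these settings. For both hairpins Ncf1 gave 1.84 here, 0.97 with an offset of 50 and 0.69 without background correction. Rac1 gave -1.36, -0.89 and -0.62 in the same order. Probes with detection p under 0.05 on at least 3 of 9 arrays were kept (13641 of 45281, 1958 of them without a single symbol). A mean per group was fitted with lmFit and tested with eBayes, with Benjamini-Hochberg adjustment over all kept probes, and all adjusted p-values of probes are from limma. Exact permutation tests used scipy 1.17.1. No pair of kept probes from 1 member gene existed, so the planned comparison of such probes gave no value. Other pathway genes were named by rule: per list, up to 4 genes with the largest passing change, plus Cybc1, Rac3, Cdc42, Rhog, Spi1, Irf8 and 1 gene that is not reported here. For each member, the 3 likest probes were named. Others were named after their values were seen: cell type markers, Kit, Cd34, Fcgr2b and the undetected genes. The fit was tested on simulated data with 200 of 13641 probes changed. It recovered 3% to 9% of log2 changes of 0.5 and 48% to 58% of log2 changes of 1, depending on the comparison. A change that did not pass is therefore not shown to be absent. The number of arrays limits the precision. The alternatives were other background corrections, scalings, filters and fits, and leaving out each array. Same-numbered Luc and hairpin 94 arrays had correlated deviations of 0.0678, 0.0486 and 0.141.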

Additional observations from a re-analysis of the deposited data

How the results depend on the processing

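The signs of Ncf1 and Ncf4 against Luc held under every alternative run, and those of Cyba and Rac1 under all but scaling to the median of all probes. Under that scaling Cyba was 0.841 for both hairpins, 0.88 for hairpin 94 and 0.802 for hairpin 97, and Rac1 was 0.294 for hairpin 94. The counts of called members stayed within 1.5 times of the counts given except as follows. With the detected-probe count as a covariate, 0 members were called for both hairpins, hairpin 94 or hairpin 97 against Luc, as 0 of all probes were, since that number separates Luc from knockdown arrays. Between the hairpins 1 member, Rac1, was called with cyclic loess and 1 with array weights, in place of 0. Leaving out 1 array gave 3 to 4 called members for both hairpins, 2 to 3 for hairpin 94, 3 to 4 for hairpin 97 and 0 to 0 between them. The split of all calls moved with the scaling: 62.2% of 5485 calls for both hairpins were higher, 99.9% of 9958 with scaling to the median of all probes, 15.6% of 9761 with scaling to probes detected on all arrays, and 47.8% of 3949 with cyclic loess. The same 2 scalings gave 9351 and 8998 calls for hairpin 94 against 4413, and 9420 and 9215 for hairpin 97 against 4487. With the brightest probe per gene, which tests fewer probes, 3465, 2847 and 2888 were called for both hairpins, hairpin 94 and hairpin 97. Called pairs ranged from 0 to 8 without 1 array, against 6. Without background correction Ncf1 minus Ncf4 was -0.807, Ncf1 minus Cyba -0.0419 and Ncf1 minus Rac2 -0.571. Without 1 array the knockdown arrays exceeded Luc by 3223 to 3766 detected probes and by 51.2 to 57.9 in mean signal. With replicate number as a block (replicate block) Luc and hairpin 94 gave 2 called members, with Cyba no longer called (-0.467, limma adjusted p = 0.0836) and 2579 calls over all probes against 4413. The correlations of deviations were computed for same-numbered arrays only, so they do not settle whether the numbers pair these samples. The count of calls between the hairpins over all probes ranged from 8 without a filter to 190 with cyclic loess, against 19, and from 0 to 31 without 1 array. Probes at background, both for Cybb and 1 for Ncf1, limit what was measured. Fitting only the groups compared was the same fit for both hairpins and was not run there.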
